A study of Homo sapiens with 28 samples.

Results

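Retention of short introns was followed in 28 RNA sequencing libraries of leukemia cells in which the splicing regulator MBNL1 was knocked down. The members were all splicing events annotated exactly as intron retention whose longer junction spanned under 500 bases. There were 12687 such events among 34064 intron retention events and 100814 splicing events in all. For 50 of them both junctions crossed an exon-intron boundary, so that no spliced form was compared, and none of these 50 was measured widely enough to be tested. The other 12637 events described 6256 introns in 3439 genes. An intron is one gene and one spliced junction, read through reads across its 5′ exon-intron boundary (5030 events), its 3′ boundary (5921 events) or a boundary of another exon form inside it (1686 events). Inclusion is the percentage of the junction reads of an event that cross into the intron, and differences of inclusion are given in percentage points.

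MOLM-13 and MV4;11 are human acute myeloid leukemia lines that carry the MLL-AF9 and the MLL-AF4 fusion. Cells were transduced with a lentiviral short hairpin against MBNL1, hairpin 64 (sh64) or hairpin 65 (sh65), or with a non-targeting hairpin (shNT), and selected with puromycin. The groups were MOLM-13 sh64 at day 4 (3 libraries) with 3 shNT libraries, MOLM-13 sh65 (4 libraries) with a second set of 3 shNT libraries, MV4;11 sh64 and MV4;11 sh65 (3 libraries each) with 3 shNT libraries that both share, and MOLM-13 sh64 at day 12 (3 libraries) with its own 3 shNT libraries. The day is not given for the sh65 and MV4;11 sets, and the day 12 set was sequenced on another instrument, so that day and sequencing run cannot be told apart.

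Every library carried a hairpin, and the knockdown was incomplete. The level of MBNL1, in reads scaled to gene length and library size (RPKM), was 3.23 ± 0.493 in MOLM-13 sh64 and 22.5 ± 5.34 in shNT at day 4, and 4.40 ± 0.260 against 26.4 ± 0.657 at day 12 (mean ± SD, 3 libraries each). In MV4;11 it was 3.72 ± 0.236 with sh64 and 12.0 ± 1.07 with sh65 against 22.4 ± 3.53 in shNT. In MOLM-13 sh65 it was 12.7 ± 3.13 (4 libraries) against 18.9 ± 1.34, so hairpin 65 left more MBNL1 RNA than hairpin 64. Of 10 markers of myeloid leukemia, 9 were at 1 RPKM or more in every library. The myeloid list summed to 1082 to 4312 RPKM. The 4 epithelial markers, mainly KRT18 and KRT8, summed to 1.36 to 11.8, the 4 T cell markers, of which CD3D passed 1 RPKM, to 0.0404 to 12.3, the 3 fibroblast markers (COL1A1) to 0.0775 to 3.07 and the 3 B cell markers (CD79A) to 0.158 to 1.76, and no erythroid marker reached 1 RPKM in any library.

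As background, an intron that stays in a mature transcript usually brings a stop codon into the reading frame, and such transcripts are often kept in the nucleus or degraded by nonsense-mediated decay. Short introns rich in G and C are known to be among those that remain most often in mature RNA. MBNL1 binds RNA at clusters of the motif YGCY, in which Y is C or U, and it promotes or represses the use of nearby splice sites depending on where it binds.

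The sequences of 8 short introns on which the results below turn are shown in the sense of the transcript, 5′ to 3′, as read from GRCh37. Capitals mark each match to the 4 DNA spellings of YGCY, searched in the sense of the transcript with overlaps allowed. These spellings are common: TGCT was found in 66.7% of all short introns, TGCC in 68.8%, CGCT in 23.2% and CGCC in 26.3%. Of introns within 25 bases of the same length, between 73.5% (STAT2) and 95.8% (SETD1A) held at least 1 match. A match is a description and not a binding site.
The intron of MINK1 is shown because it was called in the most comparisons (chr17:4797607-4797819, plus strand, intron 23 of 31, 6 matches).
MINK1: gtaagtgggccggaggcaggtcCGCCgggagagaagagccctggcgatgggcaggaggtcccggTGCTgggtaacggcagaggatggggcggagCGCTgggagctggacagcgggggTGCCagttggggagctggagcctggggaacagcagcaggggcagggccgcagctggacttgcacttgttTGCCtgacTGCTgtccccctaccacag
The introns of LAMP5 (chr20:9496779-9496902, plus strand, intron 3 of 5, 1 match), STAT2 (chr12:56743294-56743372, minus strand, intron 14 of 23, 1 match) and SLC29A2 (chr11:66136671-66136839, minus strand, intron 3 of 11, 8 matches) are shown because each was called in 3 comparisons.
LAMP5: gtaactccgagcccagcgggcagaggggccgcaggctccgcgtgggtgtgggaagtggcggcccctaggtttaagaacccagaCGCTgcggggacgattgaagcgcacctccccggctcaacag
STAT2: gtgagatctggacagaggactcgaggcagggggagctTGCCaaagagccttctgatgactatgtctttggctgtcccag
SLC29A2: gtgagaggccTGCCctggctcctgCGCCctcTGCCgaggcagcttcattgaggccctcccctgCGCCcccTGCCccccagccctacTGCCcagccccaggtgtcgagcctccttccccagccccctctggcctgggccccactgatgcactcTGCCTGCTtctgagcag
The intron of SETD1A (chr16:30991516-30991805, plus strand, intron 14 of 18, 6 matches) is shown for its rare AT and AC ends, and that of DENND4B (chr1:153915102-153915353, minus strand, intron 3 of 27, 2 matches) for a rise in both lines.
SETD1A: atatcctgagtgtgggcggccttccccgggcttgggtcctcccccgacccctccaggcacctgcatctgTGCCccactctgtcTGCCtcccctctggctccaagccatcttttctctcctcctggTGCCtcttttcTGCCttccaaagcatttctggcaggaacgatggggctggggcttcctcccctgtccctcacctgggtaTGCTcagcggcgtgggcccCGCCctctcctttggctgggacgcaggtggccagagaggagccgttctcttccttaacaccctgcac
DENND4B: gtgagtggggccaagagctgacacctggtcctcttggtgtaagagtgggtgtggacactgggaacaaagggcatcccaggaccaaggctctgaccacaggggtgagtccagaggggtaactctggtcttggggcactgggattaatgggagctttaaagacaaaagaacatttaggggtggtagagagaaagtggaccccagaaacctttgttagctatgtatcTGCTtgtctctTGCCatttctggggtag
The last pair are an intron that fell, in AP1G2 (chr14:24035370-24035486, minus strand, intron 4 of 21, 4 matches), and one with opposite levels in the controls of the 2 lines, in NUDT13 (chr10:74885002-74885155, plus strand, intron 6 of 8, 5 matches).
AP1G2: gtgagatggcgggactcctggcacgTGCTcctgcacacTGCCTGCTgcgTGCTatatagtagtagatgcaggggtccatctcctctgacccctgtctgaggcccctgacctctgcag
NUDT13: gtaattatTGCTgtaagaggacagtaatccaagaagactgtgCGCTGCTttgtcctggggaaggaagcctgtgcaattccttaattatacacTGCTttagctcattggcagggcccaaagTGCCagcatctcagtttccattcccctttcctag

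The 6256 introns were 60 to 498 bases long, with a median of 229. Their median GC content was 55.4%, against 44.7% in the 9938 longer introns of the same file, and their median density of YGCY was 1.35 per 100 bases against 1.22. GT and AG ends were found in 6162 introns, GC and AG in 73, and AT and AC, the ends used by part of the minor spliceosome introns, in 7. Of the 5867 introns that match an intron of an annotated transcript, 5256 interrupt a coding sequence, 200 lie in a 5′ untranslated region, 67 in a 3′ untranslated region and 344 in transcripts without a coding sequence. Of the coding introns, 4484 (85.3%) would bring a stop codon into the reading frame if kept, 555 (10.6%) would shift the frame without a stop of their own, and 217 (4.13%) would keep the frame. An annotated exon of another transcript covers 825 introns (13.2%) whole, so that reads inside these can come from a transcript that treats the stretch as exon.

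The values are fractions, and the read counts behind them are not in the table, so the depth of each value is unknown and no counting interval is given. In a library between 71.6% and 83.6% of the short events had a value. Of all 12687 events 7538 had a value in every library, 1213 had none in any, and 3206 had the same value, to 3 decimals, in every library measured.

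Short introns had low inclusion in all groups, with medians of 0.299 to 2.26%. Averaged over the libraries of a group, 42.2 to 62.2% of introns measured in all of them had an inclusion under 1%, and 1.82 to 4.88% had an inclusion over 50%. The share at exactly 0 was 38.2% in shNT at day 4 and 32.0% with sh64, and the lowest value among the 9 groups was 29.7%, in MOLM-13 sh64 at day 12. Across introns, the level in shNT was nearly unrelated to length (Spearman's rho 0.0136 to 0.0368 over 4276 to 4901 introns) and rose weakly with GC content (rho 0.161 to 0.229). These correlations are across introns of the same libraries, which share depth and base composition, and are given as descriptions.

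The mean inclusion over the 3828 short introns measured in all 28 libraries was higher after knockdown in every set. In MOLM-13 at day 4 the sh64 libraries had means of 7.81, 6.81 and 8.52% and the shNT libraries 4.94, 5.26 and 5.89%. The groups did not overlap, and the difference was 2.35 ± 0.568 points (SE), with p = 0.1 in an exact two-sided permutation test over libraries, the smallest value that 3 against 3 libraries allow. At day 12 the sh64 libraries had 7.35, 6.76 and 6.85% and the shNT libraries 5.51, 5.87 and 5.95%, a difference of 1.21 ± 0.227 points (exact permutation p = 0.1). This was again a complete separation, from a higher shNT level than at day 4.

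With hairpin 65 in MOLM-13 the means were 4.93, 4.97, 6.26 and 6.49% against 3.74, 3.78 and 3.70% in the second shNT set. All 4 knockdown libraries lay above all 3 controls, with a difference of 1.92 ± 0.416 points (exact permutation p = 0.0286, the smallest possible with 4 against 3). The 3 libraries of the second shNT set and library 2 of MV4;11 shNT, at 3.73%, were the 4 with a mean under 4%. Measured against both early MOLM-13 shNT sets together, the sh65 difference was 1.11 points (exact permutation p = 0.0714) and the day 4 sh64 difference 3.16 points (exact permutation p = 0.0119).

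In MV4;11 the sh64 libraries had 5.86, 5.67 and 5.22% and the sh65 libraries 4.28, 6.21 and 5.05%, against 4.29, 3.73 and 5.04% in shNT. The sh64 libraries lay above all controls (difference 1.23 ± 0.424 points, exact permutation p = 0.1), while those of sh65 overlapped them (0.825 ± 0.678 points, exact permutation p = 0.4). Permuting labels within the 4 sets that have their own shNT, with both MV4;11 hairpins as 1 knockdown group, gave a mean difference of 1.63 points (exact permutation p = 5.95e-06 over 1176000 relabelings).

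**Figure D1:**
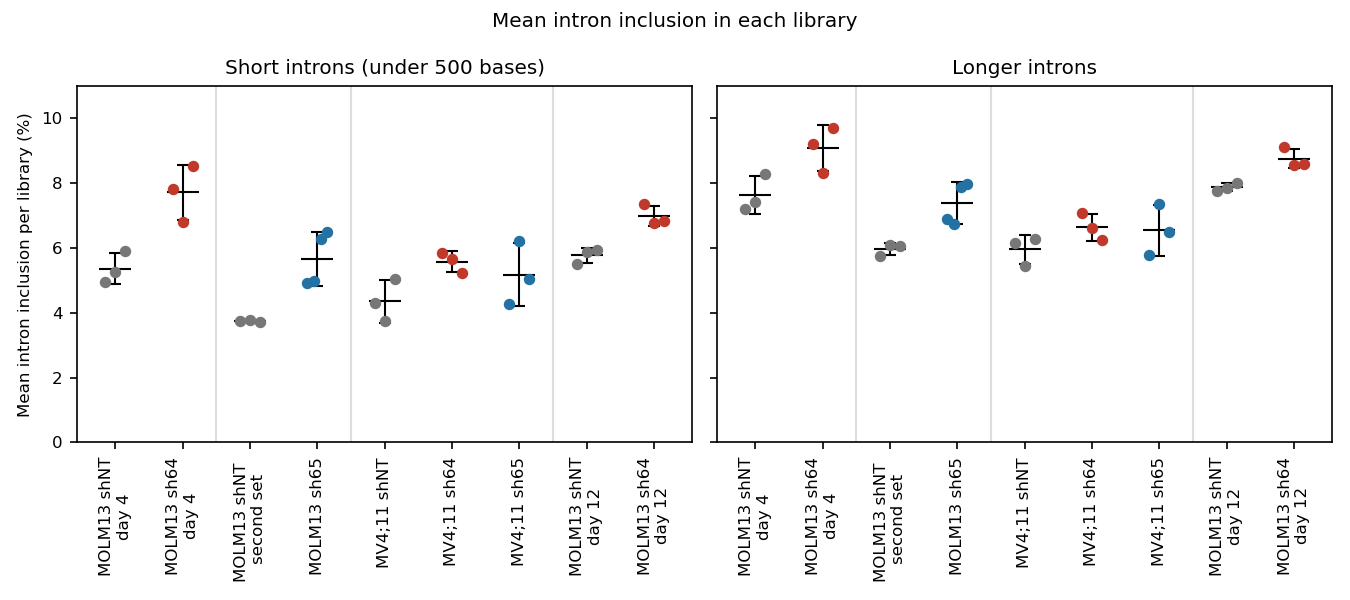
Mean inclusion (%, y axis) of the 3828 short introns (left) and the 5358 longer introns (right) measured in all 28 libraries, by group (x axis). Points are libraries, with the group mean and SD in black, and vertical lines separate the sets that have their own shNT (grey). With hairpin 64 (red) every short intron mean lies above those of its controls, and with hairpin 65 (blue) this holds in MOLM-13 but not in MV4;11.

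The share of short events with a value was 79.4 to 82.8% in the sh65 libraries of MOLM-13 and 71.6 to 77.7% in their controls, and 78.2 to 79.2% with sh64 against 72.4 to 76.9% in MV4;11. At day 4 the ranges overlapped, at 73.1 to 79.9% with sh64 and 74.1 to 77.3% in shNT. The mean inclusion rests on introns with a value in all libraries, and the part of detection in its rise was not tested.

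Short introns changed more than long ones. The mean over 5358 longer introns also rose, by 1.09 points over the 4 sets (exact permutation p = 2.72e-05), and the difference between short and long rose by 0.533 points (exact permutation p = 1.11e-05). In single sets the short introns exceeded the long ones by 0.904 points with sh64 at day 4, 0.329 at day 12, 0.509 with sh65 in MOLM-13, and 0.545 with sh64 and 0.235 with sh65 in MV4;11. The exact permutation p of these was 0.1, 0.1, 0.0571, 0.1 and 0.4. The share of short introns with an inclusion over 10% rose by 6.51 points over the sets (exact permutation p = 6.80e-06), for example from 16.6 ± 2.32% to 25.5 ± 2.58% at day 4.

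Within the short introns, length made little difference at day 4 and more with sh65. At day 4 the mean change, over all tested introns, was 2.63 points under 100 bases and 2.76, 2.35, 2.44 and 2.30 in the classes that start at 100, 200, 300 and 400 bases. Longer introns then declined from 2.32 points below 1000 bases to 1.91, 1.37 and 0.679 in the 3 longer classes, the last from 5000 bases. The limit of 500 bases was no step: junctions from 450 to under 500 bases changed by 2.38 points at day 4 and those from 500 to under 550 by 2.44, with 2.13 and 2.42 for sh65 in MOLM-13, 1.12 and 1.31 for sh64 and 1.07 and 0.972 for sh65 in MV4;11, and 1.36 and 0.859 at day 12.

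**Figure D2:**
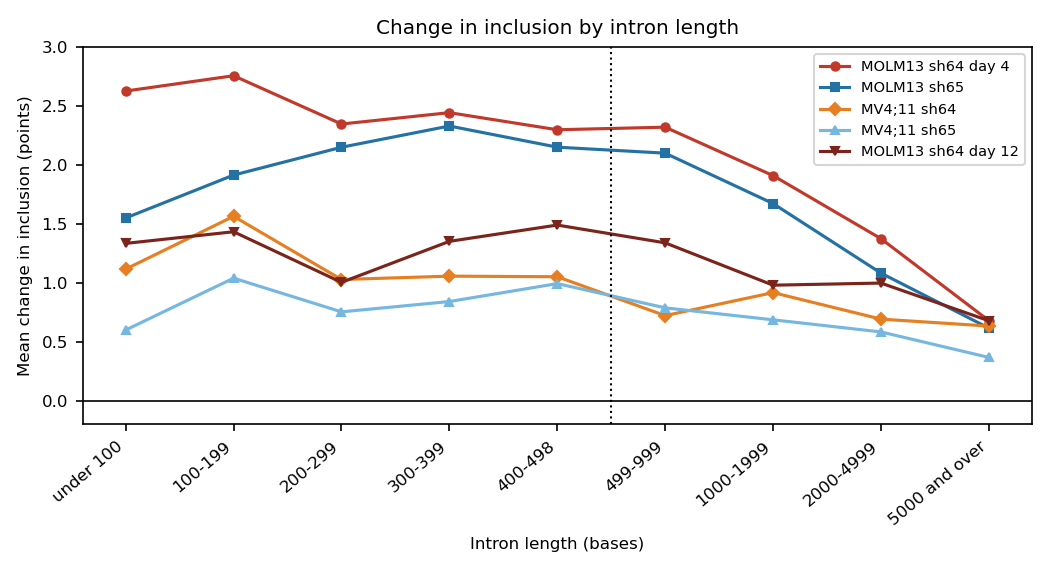
Mean change of inclusion (percentage points, knockdown minus shNT, y axis) by intron length in bases (x axis, unequal classes) for the 5 comparisons. The dotted line separates short from longer introns, and in every comparison the class from 5000 bases has a smaller mean change than each of the 5 short classes, for example 0.679 points at day 4.

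Single introns were compared with limma fitted over all splicing events, and a call, by the rule of the study, needed a difference over 10 points with an unadjusted p not above 0.01. At day 4 sh64 gave 91 short introns higher and 5 lower among 4656 tested. That is 1.95% higher, where 1.83% of all introns, short and long, were called higher, and 0.107% lower against 0.183% of all introns. With sh65 in MOLM-13, 90 were higher and 3 lower of 4612 (1.95% and 0.065%, against 1.88% and 0.14% of all introns). At day 12, 82 were higher and 16 lower of 5026 (1.63% and 0.318%, against 1.59% and 0.42%).

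In MV4;11, 59 were higher and 9 lower of 4661 with sh64 (1.27% and 0.193%, against 1.1% and 0.273% of all introns) and 20 higher and 12 lower of 4666 with sh65 (0.429% and 0.257%, against 0.52% and 0.213%). Without shNT library 3 the counts in MV4;11 were 103 for sh64 and 54 for sh65, and without sh65 library 1 the latter was 63. In each comparison the shares of short introns called were near those of all introns, so the share itself is no result about short introns. After Benjamini-Hochberg adjustment in limma, 25 short introns passed an adjusted p of 0.05 with sh64 at day 4 (0.391% of all introns did), 19 in MV4;11 (0.385%) and 32 at day 12 (0.698%). With sh65 there were 6 in MOLM-13 (0.0963% of all introns) and 3 in MV4;11 (0.0511%).

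**Figure D3:**
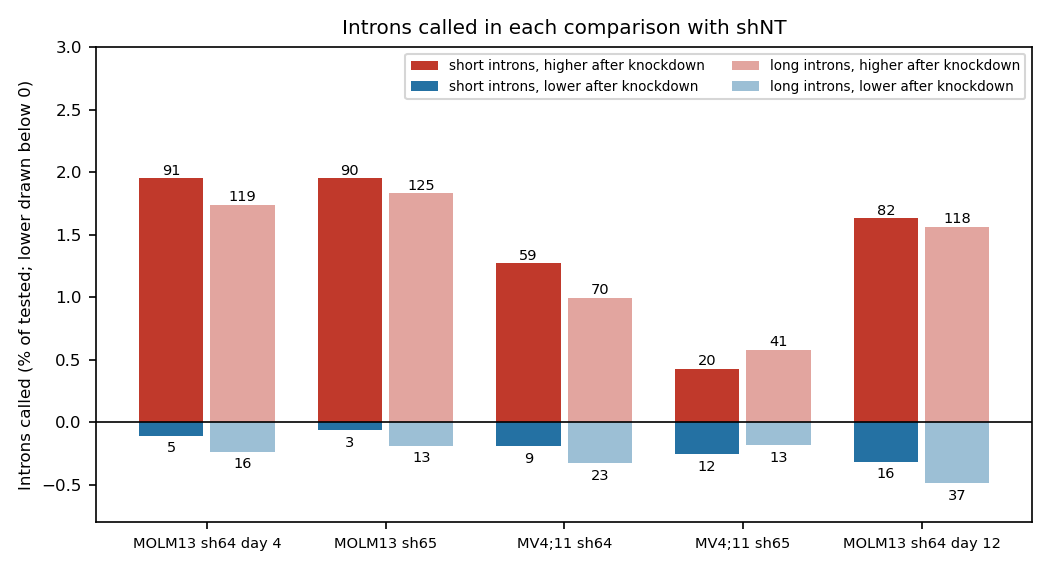
Introns called in each comparison with shNT as a percentage of those tested (y axis), short introns in full and longer introns in pale colours, with higher inclusion after knockdown drawn above 0 (red) and lower inclusion below 0 (blue). Numbers on the bars count introns, and higher calls outnumber lower ones in every comparison, least so for sh65 in MV4;11 with 20 against 12.

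The introns called higher usually started from little retention, as did most short introns. At day 4 their median inclusion was 3.48% in shNT and 28.8% with sh64, and 33 of the 91 were at exactly 0 in all shNT libraries measured. In the other comparisons 42 of 90 (sh65), 28 of 59 and 10 of 20 (MV4;11 sh64 and sh65) and 25 of 82 (day 12) were at 0 in the controls. Among short introns measured in all libraries of an shNT group, similar shares were at 0. They were 38.2% at day 4, 43.5% in the second set, 43.4% in MV4;11 and 34.1% at day 12. The control median of all tested introns was 0.781% at day 4, below that of those called higher. It was also lower for sh65 in MOLM-13, MV4;11 sh64 and day 12, but higher for sh65 in MV4;11 (0.223 against 0.112%). An inclusion over 50% after knockdown was reached by 23 introns at day 4 and 14 at day 12.

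Introns called higher were rich in GC and in YGCY. At day 4 the 91 introns called higher had a median GC content of 62.7% and 1.94 YGCY per 100 bases, against 55.3% and 1.35 in all 4656 tested. The same medians were 59.4% and 1.70 for sh65 in MOLM-13, 63.4% and 2.34 for sh64 and 62.9% and 2.23 for sh65 in MV4;11, and 62.5% and 2.12 at day 12. The 16 introns called lower at day 12 had 65.5% and 2.03, and the 12 called lower with sh65 in MV4;11 had 61.8% and 1.55. In the other comparisons, with 3 to 9 called lower, these medians were 53.4 to 55.7% and 1.06 to 1.23. Both letters of the motif core are G and C, so the density of YGCY moves with GC content, and the parts of the 2 were not separated. Median length was 247 bases at day 4 against 226.5 in all tested, a stop codon in the intron was found for 65 of 82 coding introns (79.3% against 85.5%), and an annotated exon covered 19 of the 91 (20.9% against 13.9%).

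Where both ends of an intron were measured, they mostly moved together. At day 4, 50 introns with both ends tested were called at either end, all 50 changed in the same direction at both, and 23 were called at both. The counts were 43, 42 and 17 for sh65 in MOLM-13, 31, 28 and 8 for sh64 and 13, 12 and 7 for sh65 in MV4;11, and 45, 44 and 15 at day 12. Both ends share the reads of the spliced junction, so they are not independent measures.

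Other introns of the genes with a called intron were examined. For 82 of the 91 introns called higher at day 4, another intron of the gene that did not overlap was tested, and its typical change, as a median over introns, was 5.60 points where the median of all introns was 0. In 27 of these 82 at least 1 other intron was itself called higher, and in the other comparisons in 12 of 80 (sh65), 10 of 53 and 2 of 17 (MV4;11 sh64 and sh65) and 14 of 72 (day 12). The median was 3.29 points for sh65 in MOLM-13, 1.92 for sh64 and 2.33 for sh65 in MV4;11, and 3.18 at day 12. The counts above are by intron, so called introns of 1 gene count each other. By gene, 10 of 79 held 2 or more called introns at day 4. The counts were 4 of 86 (sh65), 4 of 55 and 1 of 19 (MV4;11 sh64 and sh65) and 4 of 77 (day 12). Genes with more tested introns have more chances of a call, and no share for such genes is given.

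In all, 322 introns in 264 genes were called in any of the 5 comparisons. Of these 242 were called higher in exactly 1 comparison, 33 in 2, 10 in 3 and 1 in 4, and none in all 5. Of the introns called lower, 35 were so in exactly 1 comparison and 5 in 2. Day 4 and day 12, which share the hairpin and line but no control library, had 21 called introns in common, all in the same direction, which is 22.1% of the day 4 and 23.1% of the day 12 calls tested at both. Day 4 sh64 and MV4;11 sh64 had 11 in common (12.8% and 17.5%, all alike), and day 4 sh64 and MOLM-13 sh65 had 8 (8.99% and 8.79%, 7 alike). The change at the 2 days correlated across 4620 introns with Pearson's r = 0.34 and Spearman's rho = 0.31, a description over introns of the same libraries.

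**Figure D4:**
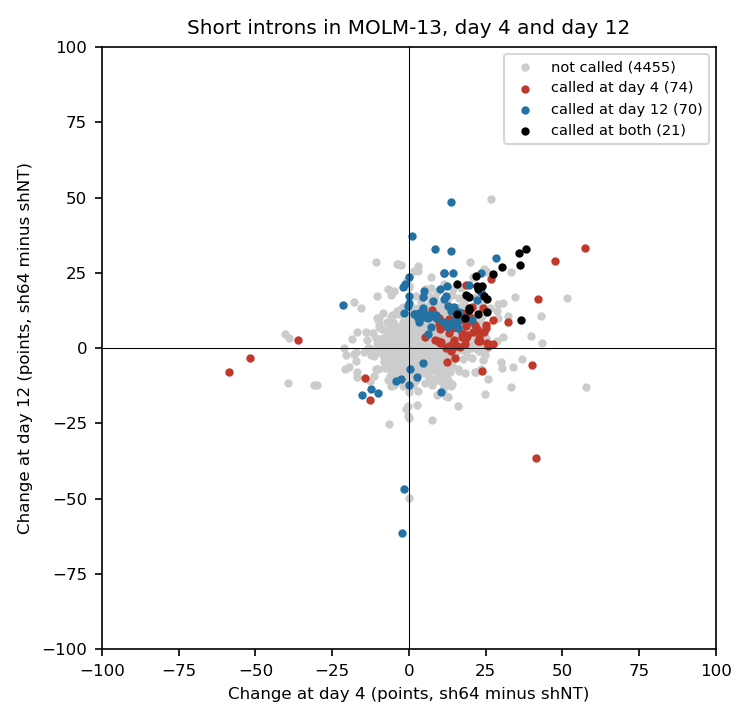
Change of inclusion with sh64 in MOLM-13 at day 12 (y axis) against day 4 (x axis), in percentage points, for 4620 short introns tested at both days. Each point is the mean over the events of an intron, coloured by the calls of its event with the lowest p. The 21 introns called at both days were called higher at both, 74 were called at day 4 alone and 70 at day 12 alone.

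MINK1, a Ste20-type kinase that acts on the JNK pathway, held the single intron called in 4 comparisons. Its intron of 213 bases would keep the reading frame. At its 5′ boundary the inclusion was 0 in the 3 shNT libraries of day 4 and 23.0, 26.2 and 31.1% with sh64 (difference 26.8 ± 2.23 points, limma adjusted p = 0.0468). At day 12 it was 0 in 3 shNT libraries and 20.6, 21.5 and 25.9% with sh64 (22.7 ± 1.55 points, limma adjusted p = 0.0138), and in MV4;11 it was 0 in shNT and 25.3, 23.1 and 15.7% with sh64 (21.4 ± 2.79 points, limma adjusted p = 0.127). No knockdown library of sh64 overlapped a control.

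With sh65 the MINK1 intron stood at 10.1, 11.2, 21.6 and 22.4% in MOLM-13, against 1.05, 0 and 0% (16.0 ± 3.75 points, limma adjusted p = 0.387). The call was lost without any 1 of the 3 shNT libraries or without sh65 library 3 or 4, at an unadjusted limma p of 0.0136 to 0.0242. In MV4;11 sh65 the values were 19.8, 19.9 and 0%, 1 library being level with the controls, and the intron was not called. The RNA level of the gene was 25.6 RPKM with sh64 and 15.5 in shNT at day 4.

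**Figure D5:**
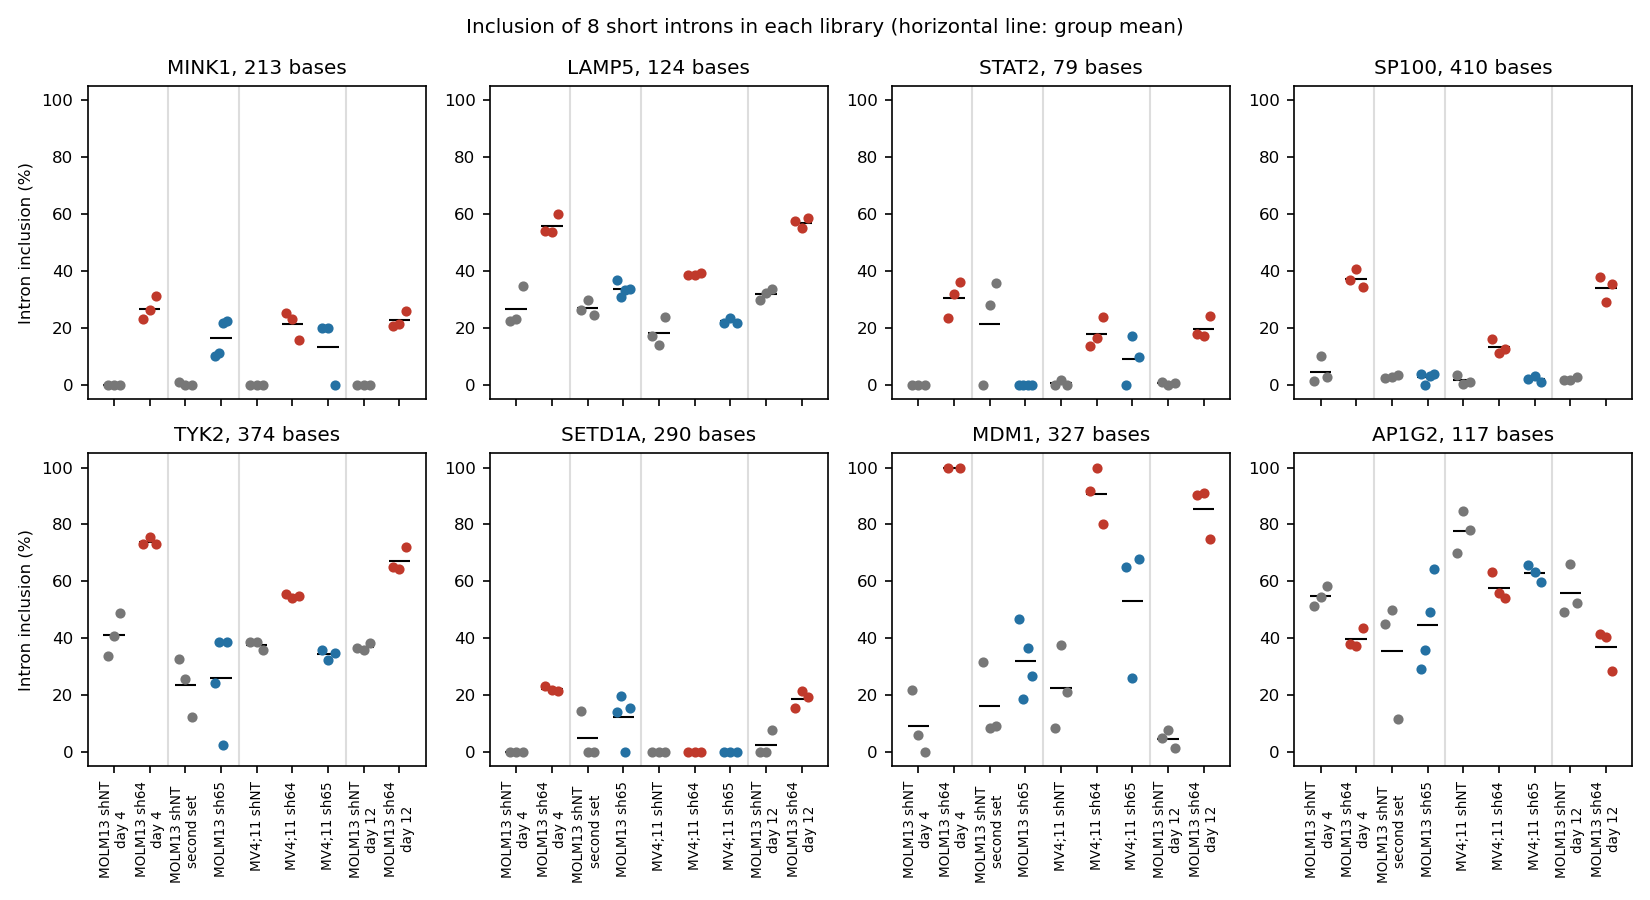
Inclusion (%, y axis) of 8 short introns in every library, by group (x axis), with shNT in grey, sh64 in red, sh65 in blue and a line at each group mean. MINK1 is at or near 0 in all controls, SETD1A is above 0 in MOLM-13 alone, STAT2 is raised in 2 libraries of the second shNT set, and AP1G2 is lower with sh64.

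Introns called in 3 comparisons were listed after their values were seen. MDM1 encodes a centriole protein that binds microtubules. Within its intron of 327 bases, at a boundary inside the intron, inclusion was 21.7, 5.88 and 0% in shNT and 100 and 100% in the 2 sh64 libraries measured at day 4. The difference of 90.8 ± 7.84 points had a limma adjusted p of 0.104, and its call was lost with same-numbered libraries as blocks (unadjusted p = 0.0273). At day 12 the values were 4.88, 7.69 and 1.52% against 90.2, 90.9 and 75% (80.7 ± 5.21 points, limma adjusted p = 0.0121). In MV4;11 sh64 they were 91.7, 100 and 80% against 8.57, 37.5 and 21.1% (68.2 ± 9.72 points, limma adjusted p = 0.149). The gene is expressed at 1.28 to 3.14 RPKM, and the sh65 libraries ranged from 18.5 to 68%. A boundary inside an intron does not by itself show that the whole intron is kept. Values below for TYK2 (429 bases), DENND4B (297), AP1G2 (173), WBP7 (228) and JOSD1 (285) are also from such a boundary. So are those for ARHGAP33 (246 bases), MYO15B (369), MACROD1 (294), GBAP1 (400) and SLC27A1 (396).

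SP100, a protein of PML nuclear bodies, and TYK2, a Janus kinase of interferon and cytokine receptors, rose with hairpin 64 in both lines. The SP100 intron of 410 bases stood at 1.18, 10.2 and 2.61% in shNT and 36.9, 40.8 and 34.3% with sh64 at day 4 (32.7 ± 3.20 points, limma adjusted p = 0.0665). At day 12 it stood at 1.72, 1.78 and 2.68% against 38.0, 29.2 and 35.3% (32.1 ± 2.49 points, limma adjusted p = 0.0201). In MV4;11 the sh64 values of 16.0, 11.2 and 12.4% were above 3.33, 0.408 and 1.13% in shNT (11.6 ± 1.61 points, limma adjusted p = 0.146). In the 7 sh65 libraries it lay between 0 and 3.91%, in the range of the controls.

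TYK2 held 2 adjacent introns of this kind. The intron of 429 bases stood at 32.3, 34.5 and 36.3% in shNT and 81.9, 76.1 and 78.1% with sh64 at day 4 (44.3 ± 1.97 points, limma adjusted p = 0.0115). At day 12 the difference was 39.6 ± 2.67 points (limma adjusted p = 0.0136). In MV4;11 sh64 it was 18.3 ± 4.13 points (limma adjusted p = 0.346), a call that was lost without shNT library 1 or 3 or without any 1 of the sh64 libraries (unadjusted p = 0.0154 to 0.0351). The intron of 374 bases rose by 32.7 ± 4.23, 30.3 ± 2.49 and 17.2 ± 0.914 points in the same 3 comparisons (limma adjusted p = 0.124, 0.0235 and 0.0154).

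LAMP5, a member of the lysosome-associated membrane protein family, also held 2 adjacent introns called with sh64 in both lines. The intron of 124 bases stood at 22.3, 23.2 and 34.7% in shNT and 54.0, 53.8 and 59.9% with sh64 at day 4 (29.1 ± 4.24 points, limma adjusted p = 0.157). The differences were 25.1 ± 1.43 points at day 12 (limma adjusted p = 0.00856) and 20.6 ± 2.79 points in MV4;11 (limma adjusted p = 0.136). The intron of 374 bases stood at 50.5, 55.8 and 52.3% in shNT and 84.6, 85.4 and 88.4% with sh64 at day 4 (33.3 ± 1.84 points, limma adjusted p = 0.0184) and rose by 25.7 ± 2.20 points at day 12 (limma adjusted p = 0.026). In MV4;11 it differed by 27.0 ± 5.45 points (limma adjusted p = 0.284), a call lost without shNT library 1 or 2 or without any 1 of the sh64 libraries (unadjusted p = 0.0143 to 0.0255). The RNA level of LAMP5 was 77.1 RPKM with sh64 and 169 in shNT at day 4, a log2 difference of -1.11 on the log2(RPKM + 1) scale, and the difference was -0.77 at day 12 and -0.82 in MV4;11.

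STAT2, a transcription factor of the interferon response, showed a difference between the 2 early control sets. Its intron of 79 bases was at 0 in the 3 shNT libraries of day 4 and at 23.6, 31.8 and 36.1% with sh64 (30.5 ± 3.48 points, limma adjusted p = 0.0931). In the second shNT set it was at 0, 28 and 35.8%, and with sh65 it was at 0 in all 4 libraries. With the early control sets joined the day 4 difference was 19.9 points and not called, at an unadjusted limma p of 0.083. At day 12 the values were 17.8, 17.2 and 24.1% against 0.826, 0 and 0.549% (19.2 ± 2.12 points, limma adjusted p = 0.0477). In MV4;11 sh64 they were 13.7, 16.4 and 23.8% against 0, 1.55 and 0% (17.4 ± 2.92 points, limma adjusted p = 0.204), a call lost without any 1 of the shNT libraries or sh64 library 2 (unadjusted p = 0.011 to 0.0143). An annotated exon covers this intron.

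The other 3 introns of this group lie in SLC29A2, a nucleoside transporter, RGS14, a regulator of G protein signaling, and the pseudogene TMEM198B. The SLC29A2 intron of 169 bases stood at 35.3, 35.7 and 24.4% in shNT and 60.5, 58.3 and 65% with sh64 at day 4. The difference was 29.5 ± 3.99 points (limma adjusted p = 0.136), a call lost with same-numbered libraries as blocks (unadjusted p = 0.0178). Its sh65 call in MOLM-13 was lost without shNT library 2 or 3 of the second set or sh65 library 1, 3 or 4 (unadjusted p = 0.0133 to 0.0194). The RGS14 intron of 450 bases was at 5.26, 0 and 0% in shNT and 15.8, 13.3 and 23.3% with sh64 at day 4 (15.7 ± 3.30 points, limma adjusted p = 0.306), a call lost with blocks (unadjusted p = 0.0317) and without any 1 of the shNT libraries or sh64 library 1 (unadjusted p = 0.0123 to 0.0281). It was at 0 in 3 shNT libraries and at 12.5, 11.0 and 16.4% with sh64 at day 12 (13.3 ± 1.52 points, limma adjusted p = 0.0524). The TMEM198B intron of 173 bases rose from 62.1, 61.9 and 63.3% to 78.4, 84.8 and 80% at day 4 (18.7 ± 1.89 points, limma adjusted p = 0.0696) and was at 40, 0 and 35.7% in the second shNT set, with which both its day 4 and its sh65 calls were lost when the early control sets were joined.

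Regulators of small GTPases that the study named were examined as a list, although the study chose them on these samples, so the count is no independent evidence of direction. Of 9 genes, 6 held 13 short introns, all tested, and at day 4 sh64 gave 5 higher calls and no lower one, where 1.83% of all introns were called higher. Their mean change was 12.2 points and their median 13.8, against 2.51 and 0.0763 over all tested short introns. The counts were 1 higher with sh65 in MOLM-13, 2 with sh64 and 0 with sh65 in MV4;11, and 2 at day 12 (1.88%, 1.1%, 0.52% and 1.59% of all introns), with no lower call.

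RHPN1, an adaptor protein with a PDZ domain, and DLG4, a scaffold of synapses, held 6 of the calls of this list. The day 4 calls of both and the MV4;11 call of DLG4 held without any 1 library. The day 12 calls, in the RHPN1 introns of 227 and 484 bases (10.7 and 10.8 points, limma adjusted p = 0.142 and 0.155), were lost without 5 and 4 of the 6 libraries, with differences down to 9.25 points in both. The RHPN1 intron of 91 bases stood at 7.14, 2.94 and 3.12% in shNT and 41.4, 42.7 and 36% with sh64 at day 4 (35.6 ± 2.34 points, limma adjusted p = 0.0272). At day 12 its shNT libraries were already at 45, 35.2 and 32.2%, against 45.2, 33.7 and 44.9% with sh64, and it was not called. The RHPN1 intron of 320 bases rose by 21.1 ± 2.35 points at day 4 (limma adjusted p = 0.0877), a call lost with same-numbered libraries as blocks (unadjusted p = 0.0106). The DLG4 intron of 365 bases rose from 1.75, 2.44 and 0% to 23.4, 17.3 and 22.8% at day 4 (19.7 ± 1.97 points, limma adjusted p = 0.0694). In MV4;11 sh64 it rose from 0, 0 and 2.13% to 18.3, 22.4 and 18.5% (19.0 ± 1.46 points, limma adjusted p = 0.0357), while the RNA level of DLG4 was 15.6 RPKM with sh64 and 7.31 in shNT at day 4.

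DENND4B, an exchange factor for Rab GTPases, had each of its 3 short introns called in some comparison, that of 297 bases with sh65 in MOLM-13 alone (20.9 points, limma adjusted p = 0.382), a call lost with both early control sets and without 5 of the 7 libraries, left out 1 at a time. The intron of 252 bases stood at 9.33, 4.08 and 27.1% in shNT and 42.0, 49.0 and 48.0% with sh64 at day 4 (32.8 ± 6.95 points, limma adjusted p = 0.312). The call was lost with blocks (unadjusted p = 0.0227) and without shNT library 1 or 2 or any 1 of the sh64 libraries (unadjusted p = 0.0193 to 0.0288). In MV4;11 sh64 the same event stood at 37.9, 48.3 and 48.2% against 15.4, 5.26 and 18.2% in shNT (31.8 ± 4.99 points, limma adjusted p = 0.179), a call lost without sh64 library 2 or 3 (unadjusted p = 0.0112 and 0.0113). Another event of that intron differed by 19.0 points there (limma adjusted p = 0.0242). The intron of 263 bases differed by 15.4 points at day 4 (limma adjusted p = 0.355), a call lost with blocks (unadjusted p = 0.0452) and without any 1 library except shNT library 2 (unadjusted p = 0.0164 to 0.0338). The 5 short introns of ARHGEF1, ARHGEF40, ARAP1 and the RHPN1 intron of 236 bases were called in no comparison, and RHOC, ARHGAP17 and DNM2 held no short intron.

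Genes of membrane trafficking that the study named went both ways. They share DENND4B with the list above, and at day 4, 2 of 14 tested introns were called higher and 2 lower (1.83% and 0.183% of all introns), with a mean change of 0.380 points. The lower calls were all in AP1G2, which encodes a gamma subunit of the AP-1 clathrin adaptor. Its intron of 117 bases stood at 51.2, 54.5 and 58.5% in shNT and 38.1, 37.3 and 43.7% with sh64 at day 4 (difference -15.0 ± 2.76 points, limma adjusted p = 0.245). That call was lost without shNT library 2 or 3 or sh64 library 1 or 2 (unadjusted p = 0.0118 to 0.0186), and with both early control sets the difference was -5.47 points. All 4 short introns of AP1G2 were called lower in at least 1 comparison with sh64 and none was called higher. The intron of 424 bases was called in MV4;11 sh64 and at day 12 (-19.8 and -15.3 points, limma adjusted p = 0.262 and 0.133), and both calls were lost without single libraries, 5 and 4 of the 6 (unadjusted p = 0.0138 to 0.0222 and 0.0132 to 0.0156). The second shNT set had a lower mean than the first in all 4, for example 0, 17.1 and 0% against 32.7, 41.7 and 31.2% in the intron of 88 bases.

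The call of the AP1G2 intron of 88 bases at day 4 (-14.3 ± 3.20 points, limma adjusted p = 0.34) turned to 0.448 points when both early control sets were used, was lost with blocks (unadjusted p = 0.0426), and was lost without shNT library 1 or 3 or any 1 of the sh64 libraries (unadjusted p = 0.0112 to 0.034). At day 12 the AP1G2 intron of 173 bases stood at 29.6, 32.4 and 26.6% in shNT and 18.7, 19.0 and 18.9% with sh64 (-10.7 ± 1.59 points, limma adjusted p = 0.0944). Without shNT library 2 that difference was -9.24 points, under the size of a call. SEC16A, a protein of endoplasmic reticulum exit sites, had 4 short introns, and none was counted as called. At the 3′ boundary of its intron of 330 bases the values in MV4;11 were 7.69, 12.2 and 10.8% with sh64 and 0 in 3 shNT libraries, while the event with the lowest p, which stands for the intron, did not reach 10 points.

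Among 29 genes of the MLL, SETD1 and DOT1L complexes, 11 held 39 short introns, of which 37 were tested at day 4. Of these, 1 was called higher, where 1.83% of all introns were, so the count is no result about these complexes. DOT1L held no short intron. SETD1A, a histone H3 lysine 4 methyltransferase, held 4, and its intron of 290 bases, which has AT and AC ends and is covered by an annotated exon, was at 0 in 3 shNT libraries and at 23.3, 21.7 and 21.3% with sh64 at day 4 (22.1 ± 0.566 points, limma adjusted p = 0.00322). At day 12 its 5′ boundary stood at 0, 0 and 7.84% against 15.4, 21.6 and 19.4% (16.2 ± 3.01 points, limma adjusted p = 0.151), a call lost without shNT library 1 or 2 or sh64 library 2 or 3 (unadjusted p = 0.0174 to 0.019). The event with the lowest p, which stands for the intron, differed by 11.3 points at day 12 (limma adjusted p = 0.119). With sh65 in MOLM-13 the 5′ boundary stood at 14.1, 19.8, 0 and 15.5%, and 1 library of the second shNT set was at 14.5%.

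In MV4;11 the SETD1A intron of 290 bases was at 0 in all 9 libraries at its 5′ boundary. The difference between the lines in the response to sh64 was -22.1 ± 0.583 points there (limma interaction, adjusted p = 1.64e-06). Of the groups in that contrast only MOLM-13 sh64 had values above 0. The depth behind the zeros is unknown, so the SE may be too small. Of the 7 short introns with AT and AC ends, 6 were tested at day 4, and SETD1A was the one called. The other list member that was called, WBP7, an older symbol of the methyltransferase gene KMT2B, had an intron of 228 bases at 0 in the 3 MV4;11 shNT libraries and at 38.3, 36.4 and 38.5% with sh64 (37.7 ± 0.644 points, limma adjusted p = 0.00115). In MOLM-13 the same intron was at 39.0, 56.0 and 66.7% in shNT at day 4, and in the second shNT set at 0, 0 and 62.1%.

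Other functional groups held few calls, and lists of this size are too short for an absence of calls to be a result about them. Of all introns, 0.52 to 1.88% were called higher in the 5 comparisons and 0.14 to 0.42% lower. No short intron of splicing factors (54 tested at day 4) was called higher in any comparison, and 1, in the SR protein gene SRSF1, was called lower with sh65 in MV4;11, by 10.7 points (limma adjusted p = 0.257). Among 34 tested introns of aminoacyl tRNA synthetases at day 12, 3 were called higher (1.59% of all introns were), in HARS2 (14.7 points), VARS2 (10.1 points) and RARS2 (13.4 points), with limma adjusted p values of 0.0117, 0.0345 and 0.138. These 3 genes encode mitochondrial synthetases, and none of the list was called in the other comparisons. Replication and repair genes had 3 of 45 called higher with sh65 in MOLM-13 (1.88% of all introns were), in FANCG, POLE and RAD52 (13.1, 32.1 and 16.5 points, limma adjusted p = 0.095, 0.135 and 0.199), and 1 in MV4;11 sh64, in FANCA. Introns of actin cytoskeleton genes (14 tested at day 4), proteasome subunits (12) and oxidative phosphorylation genes (7) were called in no comparison.

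FCGRT, the heavy chain of the neonatal Fc receptor, had its intron of 408 bases at 5.99, 0 and 6.08% in shNT and 30.0, 24.4 and 29.1% with sh64 at day 12 (23.8 ± 2.52 points, limma adjusted p = 0.0436). At day 4 the values were 3.75, 0 and 9.66% against 24.8, 20.8 and 33.7% (22.0 ± 4.49 points, limma adjusted p = 0.296), a call lost without any 1 of the shNT libraries or sh64 library 1 or 3 (unadjusted p = 0.0102 to 0.0254). GUSB, the lysosomal beta-glucuronidase, had its intron of 84 bases at 9.06, 6.33 and 4.04% in shNT and 21.3, 19.4 and 22.0% with sh64 at day 4 (14.5 ± 1.56 points, limma adjusted p = 0.0813). In MV4;11 the sh64 values of 3.25, 3.01 and 3.75% lay below all of shNT, at 5.26, 7.14 and 12.5%. An annotated exon covers both introns.

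Among the largest rises at day 4, EME2, a subunit of a DNA endonuclease, rose in its intron of 230 bases from 0, 0 and 9.09% to 59.7, 72.7 and 81.6% (68.3 ± 6.69 points, limma adjusted p = 0.0665) at 1.20 RPKM in shNT. AMN, a partner of the receptor cubilin, rose in its intron of 169 bases from 3.23, 6.06 and 0% to 55.4, 47.4 and 64.5% (52.7 ± 4.99 points, limma adjusted p = 0.0631). In shNT at day 12 the AMN intron was at 48.1, 45.6 and 50%, and the EME2 intron at 78.9% in 1 library and at 0 in the other two. JOSD1 and EVI5L differed by 54.4 and 51.1 points at day 4, but their calls were lost with same-numbered libraries as blocks (unadjusted p = 0.0294 and 0.0132), and that of JOSD1 also without any 1 library except shNT library 3 (unadjusted p = 0.0146 to 0.0278).

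With sh65 in MOLM-13 the largest rise was in MROH6, whose intron of 290 bases was at 0 in the 3 libraries of the second shNT set and at 66.2, 63.2, 74.5 and 76.8% with sh65 (70.2 ± 3.67 points, limma adjusted p = 0.0203). In every other library of the series it lay between 57.7 and 92.0%, so the second shNT set is the group that stands apart, and with both early control sets the call was lost. AGAP9 and AGAP10, near-identical copies whose reads cannot be assigned with certainty, differed by 55.6 and 50.5 points (limma adjusted p = 0.242 and 0.197). CEP250, a centrosomal protein, was at 0 in the 2 shNT libraries measured and rose by 52.9 points (limma adjusted p = 0.133). TMEM198B and KIF18B, a mitotic kinesin, differed by 50.4 and 50.2 points (limma adjusted p = 0.4 and 0.218), and the call of TMEM198B was also lost without 5 of the 7 libraries, left out 1 at a time. The AGAP calls were lost with both early control sets.

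In MV4;11 NUDT13, a nudix hydrolase, stood at 5.26 and 0% in the 2 shNT libraries measured in its intron of 154 bases, at 81.4, 88.1 and 65.7% with sh64 and at 71.7, 78.9 and 73.5% with sh65. The differences of 75.8 ± 8.25 and 72.1 ± 3.21 points (limma adjusted p = 0.155 and 0.0893) share those 2 control libraries, and the first call was lost without sh64 library 1 (unadjusted p = 0.0119). In MOLM-13 the intron was retained at 78.1 to 100% in every library measured, controls included. STK36, a kinase linked to cilia, was the reverse case: its intron of 243 bases was at 44.4 and 44% in the 2 shNT libraries measured and at 0 to 4.55% in the 6 knockdown libraries (-42.7 ± 1.85 and -43.5 ± 0.895 points, limma adjusted p = 0.0297 and 0.0341). In MOLM-13 the STK36 intron was at 0 to 30.2%.

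ACCS, in its intron of 117 bases, stood at 5.88, 8.33 and 12.5% in shNT and 47.3, 39.6 and 48.5% with sh64 in MV4;11 (36.2 ± 3.23 points, limma adjusted p = 0.0541). With sh65 it was at 4.88, 22.2 and 2.86%. PPOX, an enzyme of heme synthesis, rose in its intron of 416 bases from 11.1, 13.3 and 0% to 37.5, 40.5 and 41.9% (31.8 ± 4.13 points, limma adjusted p = 0.125). RP11-958N24.1, a transcript of a duplicated region whose reads are uncertain, was the one short intron with a limma adjusted p under 0.05 that was called higher with sh65 in MV4;11, at 26.9, 23.1 and 24.8% against 0 in shNT (24.9 ± 1.03 points, limma adjusted p = 0.0392).

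At day 12 the 4 largest falls named without overlap between the groups lay in 1 gene, and the first of them, of 86.2 points, exceeded the rise of 80.7 points in MDM1. MACROD1, a mitochondrial hydrolase of ADP-ribose linkages, held these 4 introns. The intron of 294 bases stood at 83.7, 90.2 and 84.8% in shNT and at 0 in the 3 sh64 libraries (-86.2 ± 1.90 points, limma adjusted p = 0.00071). The introns of 81, 82 and 463 bases fell by 73.3 ± 8.74, 65.0 ± 6.87 and 53.6 ± 9.84 points (limma adjusted p = 0.0574, 0.0433 and 0.148). The last intron was at 0, 28.9 and 0% with sh64, and its call was lost without any 1 library except sh64 library 2 (unadjusted p = 0.0119 to 0.0183). At day 4 the introns of 81 and 82 bases were at 0 in 3 of the 4 shNT values measured and at 19.0% in the other. The intron of 294 bases was at 68.2 to 84.2% in the 4 sh65 libraries.

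Rises at day 12 included MYO15B, an unconventional myosin gene, whose intron of 369 bases went from 0, 12.8 and 0% to 53.6, 47.5 and 52.5% (46.9 ± 4.43 points, limma adjusted p = 0.0331). ARHGAP33, a GTPase-activating protein, rose in its intron of 246 bases from 46.8, 52.9 and 55.3% to 89.5, 92.4 and 96.1% (41.0 ± 3.00 points, limma adjusted p = 0.0171). At the boundary inside the MYO15B intron, inclusion was 41.9 to 66.7% in all MV4;11 libraries, shNT included.

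At day 4 the lower values in GBAP1, EP400NL and ODF3B rested on groups with a missing library. The intron of 400 bases in GBAP1, a pseudogene whose reads are uncertain, stood at 57.1, 60 and 60% in shNT and at 0 in the 2 sh64 libraries measured (-59.0 ± 1.15 points, limma adjusted p = 0.00691). With both early control sets that difference was -40.6 points and was not called. Of the 322 called introns, 4 were called in opposite directions in different comparisons, those of GBAP1, MROH6, RP11-1212A22.1 and CTD-2020K17.1, and in all 4 the higher call was with sh65 against the second shNT set.

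The response to sh64 was compared directly between days and lines. Day 12 differed from day 4 in 59 of 4620 short introns, 15 with a more positive and 44 with a more negative response at day 12 (1.28%, where 1.26% of all introns differed). MV4;11 differed from MOLM-13 in 45 of 4424, 12 more positive and 33 more negative (1.02% against 1.12% of all introns). Within MV4;11, sh64 and sh65 libraries differed in 38 of 4846 introns, 30 of them higher with sh64 (0.784% against 0.758%). At an adjusted p under 0.05 in limma, 2, 4 and 8 remained. Among the introns described above, LAMP5 (124 bases) and TYK2 (374 bases) were higher with sh64 than with sh65 in MV4;11 by 16.5 ± 0.669 and 20.6 ± 1.11 points (limma adjusted p = 0.0221 and 0.038).

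Genes with a short intron called higher were called higher in RNA level more often than lower in each comparison, by small numbers. A gene call needed a change of 1.5-fold on log2(RPKM + 1) with an unadjusted limma p not above 0.01. Of 78 genes with an intron called higher at day 4, 4 were higher and 1 lower, where 1.33% of all genes were called higher and 1.09% lower. The counts were 9 and 0 of 84 for sh65 in MOLM-13 (1.76% and 1.48% of all genes), 12 and 2 of 55 for sh64 in MV4;11 (3.89% and 2.62%), 3 and 0 of 18 for sh65 in MV4;11 (1.78% and 1.85%), and 6 and 5 of 76 at day 12 (3.27% and 2.25%). Their median log2 difference was 0.24, 0.30, 0.32, 0.53 and 0.08 in that order, against 0.00, 0.05, 0.01, 0.06 and 0.04 in all genes. Genes with any tested short intron also leaned higher, with 37 higher and 21 lower of 2458 at day 4. The others were 71 and 20 of 2457, 151 and 48 of 2480, 71 and 33 of 2486, and 68 and 53 of 2566. The medians of these genes were 0.05, 0.10, 0.10, 0.14 and 0.06. Both sets of genes thus leaned to higher levels. The median was larger in genes with an intron called higher in the first 4 comparisons, and near that of the wider set at day 12 (0.08 against 0.06). The reason for the larger median was not tested.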

How the data were processed

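Libraries were grouped by the labels. The authors aligned reads with STAR to GRCh37/hg19 and computed the deposited fractions (percent spliced in, PSI) with AltAnalyze. The deposited RPKM values per gene came from the same pipeline. Inclusion was PSI where the examined junction crossed a boundary, otherwise 1 minus PSI, given as percent. An event was tested in limma 3.58.1 (R 4.3.3) when measured in over 50% of the libraries of each group, with Benjamini-Hochberg adjustment over all tested events. A call needed a difference over 10 points with an unadjusted p not above 0.01, and each intron took the result of its lowest-p event. Gene levels were tested in limma on log2(RPKM + 1) with a mean of at least 1 RPKM in either group. Library means used exact two-sided permutation tests (scipy 1.17.1). The fits were tested on simulated data. Introns were annotated with GENCODE on GRCh37, and sequences were read from that genome (pysam 0.24.0).

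Named introns were those called alike in at least 4 comparisons, the 6 largest rises and 4 largest falls per comparison without overlap, those of genes the study named, and up to 3 per gene list. Introns called in 3 comparisons were added after their values were seen. The members and lists were chosen with earlier results of these data known. The main fits and permutation tests did not pair libraries, and blocks of same-numbered libraries were an alternative fit. Calls lost with the block are named at day 4 only. There the deviations of same-numbered libraries from the group means correlated at 0.225, 0.171 and 0.313 over short introns and at 0.811 to 0.892 over gene levels. Of the 96 calls at day 4, 62 were also made with the block. The labels do not say that libraries came from separate cultures, and the methods of the study describe biological triplicates for the day 12 set alone. The p-values therefore measure the spread between libraries, which may be technical. The depth behind each fraction is unknown. Alternatives were the measured share, scale, fit, block, controls, thresholds, events and each library left out. 1 of the introns that the rule named is not reported here.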

Additional observations from a re-analysis of the deposited data

Results flagged for a closer look

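In the 4 MOLM-13 sh65 libraries, the one group of over 3, 7 of 71 named introns had a library that stood apart, its gap to the nearest other library divided by the range being above the critical value, and 6 of these are given here. Chance gives about 1 in 20 groups for normally distributed values. Where 3 libraries are at 0 the ratio is 1 whatever the other value. The 7 of 71 can therefore not be set against that rate. The ratio was 0.896 for GBAP1 (400 bases), where 1 library was at 70.6% and the others from 47.6 to 50%, and 0.906 for SLC27A1 (396 bases). It was 1 for ARHGEF40 (130 bases) and SETD1A (139, 497 and 81 bases), where 3 libraries were at 0 and the other at 14.0% or below.

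The response to sh64 differed in limma between days or lines for 20 named introns, most of which had been named for a call in one of the comparisons, so a smaller response in the other is built into the choice. Day 12 minus day 4, the response differed by -95.7 points for JOSD1, -35.6 for AMN, 44.7 for EP400NL, 55.3 for GBAP1 (400 bases), 46.2 for ABC7-42389800N19.1, -60.4 for MACROD1 (82 bases), -31.8 and -19.9 for RHPN1 (91 and 320 bases), -13.7 for GUSB and -20.5 for SLC29A2. MV4;11 minus MOLM-13, it differed by -26.0 and -15.5 points for TYK2 (429 and 374 bases), 75.3 for EP400NL, 49.8 for ODF3B, 74.3 for NUDT13, 29.1 for ACCS, -41.6 for STK36, -25.0 for CTD-2020K17.1, -22.1 for SETD1A (290 bases), 17.7 for SEC16A (330 bases), -22.2 for RHPN1 (320 bases), -19.4 for GUSB and -21.1 for SP100. These rest on an unadjusted p not above 0.01 and a difference over 10 points, and of the introns listed SETD1A and STK36 passed an adjusted p of 0.05 (limma adjusted p = 1.64e-06 and 0.0494). For NUDT13 and STK36 only 2 of the 3 MV4;11 shNT libraries were measured.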

How the results depend on the processing

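One fit over all 9 groups called 204 short introns for sh64 at day 4, 111 for sh64 and 55 for sh65 in MV4;11, where the separate fits called 96, 68 and 32. Both early MOLM-13 shNT sets as controls gave 210 (all higher) for sh64 at day 4 and 51 (41 higher, 10 lower) for sh65 in place of 93. In the order day 4 sh64, MOLM-13 sh65, MV4;11 sh64, MV4;11 sh65 and day 12 (main count 98), an adjusted p under 0.05 left 25, 6, 19, 3 and 32, a difference over 20 points 49, 37, 21, 15 and 35, and calls at both ends 23, 17, 8, 7 and 15. Counting every event gave 165, 167, 113 and 168, in the same order without MV4;11 sh65. The last 3 settings are stricter or looser by construction, and for the others the cause was not tested.

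Leaving out 1 library gave 79 to 125, 73 to 112, 63 to 103, 30 to 63 and 90 to 112 calls. The rise of the mean inclusion was then 1.95 to 2.80, 1.65 to 2.17, 0.915 to 1.57, 0.310 to 1.28 and 1.03 to 1.32 points, and the excess of short over long introns 0.819 to 0.976, 0.431 to 0.615, 0.417 to 0.733, 0.107 to 0.423 and 0.251 to 0.386. Over the 4 sets these were 1.53 to 1.74 and 0.501 to 0.580 points. Without 1 library of the second shNT set the sh65 rise was 1.92, 1.94 or 1.90 points (exact permutation p = 0.133). With both early control sets the mean inclusion differed by 3.16 points for sh64 (exact permutation p = 0.0119) and 1.11 for sh65 (exact permutation p = 0.0714), and the excess over long introns by 0.880 and 0.533 (exact permutation p = 0.0119 and 0.00476). With introns measured in that comparison the sh65 excess was 0.599 (exact permutation p = 0.0286).

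With the replicate block the counts were 104, 55, 36 and 75 (day 4, MV4;11 sh64, MV4;11 sh65, day 12). A paired exact sign-flip test, chosen after seeing the data, gave p = 0.25 for the mean inclusion in all but MV4;11 sh65 (p = 0.75), and 3 pairs allow no lower p than 0.25. Outside day 4 same-numbered libraries correlated at -0.0912 to 0.0577 over short introns and share only a number. MOLM-13 sh65 and its controls share too few numbers for a paired fit. At an adjusted p under 0.05 the responses differed for 2, 4 and 8 introns between days, lines and hairpins. Without a filter on low values, 3, 5, 5 and 1 genes with a called intron changed in RNA level in the first 4 comparisons, in place of 5, 9, 14 and 5. Of 490 values of named introns under the other alternatives, 410 kept their side of the threshold, 79 lost the call and 1, AP1G2 (88 bases) at day 4, turned to 0.448 points. Direction was checked only for values that were called. Of 97 calls of named introns, 63 held with each library left out.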
